A study of Mus musculus with 6 samples.

Results

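Matricellular proteins are secreted into the extracellular matrix, where they act mainly on cell adhesion and signalling rather than as structural fibres. The 10 genes described here were taken by symbol from deposited expression tables of 27502 genes. They are the thrombospondins Thbs1, Thbs2 and Thbs3, tenascin C (Tnc), periostin (Postn), Sparc and its relative Sparcl1, the spondins Spon1 and Spon2, and fibronectin (Fn1). All 10 symbols were found, each on 1 row. Fibronectin is a fibril-forming glycoprotein and is grouped with them here because most of the others bind it, bind its integrin receptors or alter how cells attach to it.

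The cells were smooth muscle cells grown from mouse aorta; such cells contract the vessel wall. In 3 samples they had been treated with short interfering RNA against Ezh2 (siEzh2) and 3 samples were labelled Control, and the time given is 48 hours. Ezh2 encodes the methyltransferase of Polycomb repressive complex 2, which marks histone H3 for gene repression. No source used here gives the strain, age or number of the mice, what the control cells received, or whether the 3 samples of a group were separate cultures. The p-values therefore set a group difference against sample-to-sample spread, which may be technical only. As a check of the labels, Ezh2 had 3.41, 3.59 and 3.88 FPKM (fragments per gene, adjusted for its length and for sequencing depth) in control and 1.201, 1.09 and 1.05 FPKM in siEzh2 samples. The groups did not overlap, and the transcript was lower where it was targeted, but not absent.

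In injured or growing arteries, smooth muscle cells that leave the contractile state are known to secrete more of several of these proteins. Thrombospondins 1 and 2 are trimers that bind CD36, CD47 and integrins, and thrombospondin 1 can also activate latent TGF-beta. Tenascin C and periostin appear in matrix under repair and bind fibronectin, collagen or integrins. SPARC binds collagen and loosens cell attachment, and the spondins share the thrombospondin type 1 repeat.

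Marker genes were read from the same test as the members, in which 46.9% of all tested genes were called, 24.1% higher and 22.7% lower after knockdown. Of 8 smooth muscle markers 6 were tested, and 5 of these were lower and 0 higher. Acta2 was between 683 and 711 FPKM in control and between 519 and 555 FPKM in siEzh2 samples, and Myl9 went from 154 ± 2.43 to 65.5 ± 0.742 FPKM (mean ± SD, n = 3 per group). Des was at or below 0.832 FPKM in every sample. Tagln was listed at or below 0.352 FPKM, but 67.9% of its exon bases overlap antisense genes, so its level is uncertain. The other lower genes were Lmod1 (16.788 to 10.017 FPKM), Smtn (13.43 to 10.376) and the scarce Myh11 (1.826 to 1.1212, group means). Cnn1, at 1.1437 and 1.0404 FPKM (group means), did not pass the test and its groups overlapped. The summed level of the list was 872 to 897 FPKM in control and 607 to 646 FPKM in siEzh2 samples. This sum was made up mostly of Acta2 and Myl9, so its fall says little about the other markers. Of 6 fibroblast markers 5 were tested, 1 was higher and 2 lower. Dpt went from 24.8 to 10.2 FPKM, Lum from 2.79 to 1.11 and Pdgfra from 28.6 to 37.5 (group means). Their sums (335 to 357 and 350.0 to 365 FPKM) overlapped and were made up mostly of Ly6a, which did not pass the test at 272 ± 11.2 and 294 ± 6.15 FPKM (mean ± SD, n = 3 per group). Endothelial markers summed to 2.19 to 2.42 and 3.49 to 3.84 FPKM, with 1 of 6 tested, higher. Kdr went from 1.11 to 1.55 FPKM. Tek (0.332 to 0.857) and Vwf (0.417 to 0.932), both under the filter, were also higher in every siEzh2 sample. Pecam1 (0.17 to 0.0789), under the filter too, was lower in every siEzh2 sample. The groups overlapped for Cdh5 (0.223 and 0.196) and Tie1 (0.0146 and 0.00807), also under the filter. Pecam1 and Cdh5 stayed below 0.34 FPKM throughout. Macrophage and leukocyte markers summed to 14.8 to 17.4 and 10.3 to 12.0 FPKM, with 3 of 6 tested, 1 higher and 2 lower. Cd68 was higher (5.77 to 6.90 FPKM) and Lyz2 lower (7.98 to 3.40, group means). The other lower gene, Csf1r, passed the filter through its control samples alone, at 2.01 and 0.621 FPKM. The pan-leukocyte gene Ptprc was at or below 0.00897 FPKM. Adipocyte markers summed to 31.8 to 32.2 and 22.7 to 24.6 FPKM, with 4 of 5 tested, 0 higher and 3 lower. Fabp4 went from 19.5 to 12.6 FPKM and Adipoq from 8.79 to 7.38, and Lep was at or below 0.143 FPKM. Of 16 mitochondrially encoded transcripts, a sign of RNA quality, 8 were lower and 0 higher. The part of these shifts in the results below was not tested, and in bulk RNA fewer cells of a type cannot be told apart from less RNA per cell.

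The matricellular genes split in direction. Among the 10, Fn1, Thbs2 and Tnc were higher in siEzh2 samples, Spon2, Postn, Sparc, Thbs3 and Spon1 were lower, and Thbs1 and Sparcl1 did not pass the test. The test was limma on log2(FPKM + 1), with Benjamini-Hochberg adjustment over all 11869 genes whose mean reached 1 FPKM in either group and a call at an adjusted p under 0.05. The share called over all tested genes was 46.9%, with 24.1% higher and 22.7% lower. Groups did not overlap for 8 of the 10 genes, against 58.1% of all tested genes. The median log2 fold change, siEzh2 minus control, was −0.17 over the 10 genes and 0.01 over all tested genes. All 10 passed the filter on low values, Spon2 through its control samples alone, so for Spon2 the filter favoured a difference.

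**Figure D1:**
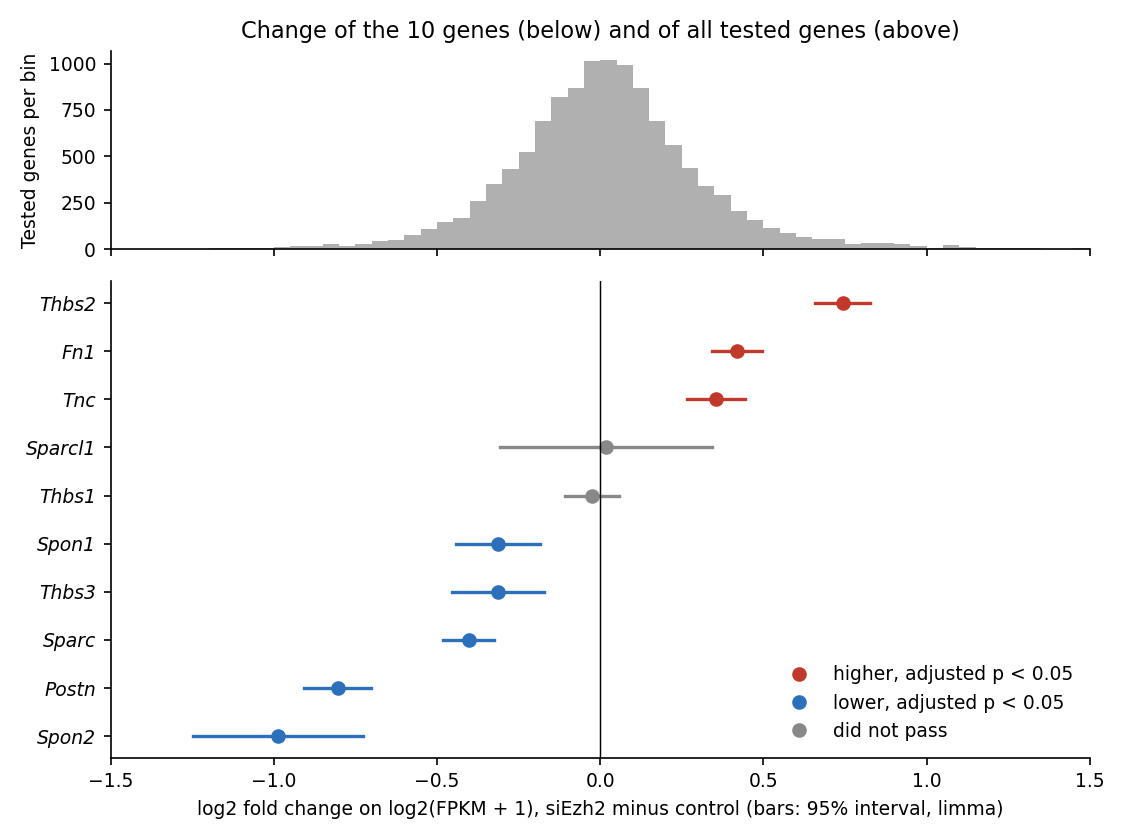
Log2 fold changes of the 10 matricellular genes on the log2(FPKM + 1) scale, siEzh2 minus control (lower panel, points with 95% intervals from limma), under the distribution of the same quantity over the 11869 tested genes (upper panel, 22 genes beyond 1.5 in either direction not drawn). Thbs2, Fn1 and Tnc lie above 0, 5 genes lie below, and the intervals of Sparcl1 and Thbs1 include 0.

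The sizes of these changes varied widely against the rest of the transcriptome. By absolute log2 fold change, Spon2, Postn and Thbs2 stood at the 98.9th, 97.5th and 97.0th percentiles of tested genes. Fn1, Sparc, Tnc, Thbs3 and Spon1 lay between the 76.8th and 87.0th percentiles. Thbs1 and Sparcl1 lay at percentiles 8.73 and 5.66. The 25th and 75th percentiles of the signed log2 fold change over all tested genes were −0.15 and 0.17.

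Short stretches near the start sites are shown for 4 genes that changed in opposite directions. RefSeq promoter windows of 300 bases (250 before to 50 after a start, GRCm38.p6) were held for Postn, Sparc, Thbs2, Thbs3 and Tnc. The capitals mark a SMAD box (CAGACA on either strand, here read as TGTCTG), which 21.04% of the 32851 windows hold, or a TATA box (TATAAA on either strand), which 13.6% hold. Thbs2 and Tnc were higher after knockdown, and Sparc and Postn lower.
Thbs2, chr17:14694313-14694340, minus strand: cctgcccctctTGTCTGactcctccccg
Thbs2, chr17:14694290-14694317, minus strand: ccccgggccccTGTCTGgaaagcctggg
Tnc, chr4:64046991-64047018, minus strand: gtgggaaaggaTGTCTGgaggcgaggcg
Sparc, chr11:55420100-55420127, minus strand: cctgaccctcaTGTCTGtttaggcagga
Postn, chr3:54361070-54361097, plus strand: gcccagagctaTATAAActcagctctcc
The SMAD box thus stood in windows of Thbs2 and Tnc, which rose, and of Sparc, which fell. It was absent from the windows of Postn and Thbs3, which also fell. No window was held for the other members, so genes that rose and fell cannot be contrasted by it. Counted from the RefSeq start, the first capital base lay at −67 and −44 in Thbs2 and at −36 in Sparc. In Tnc it lay at −71 from one start and at 9 after another. Further SMAD boxes lay after the start, at 15 in Sparc and at 40 in Tnc. The TATA box of Postn began at −26, and the window of its other start held none. TATA letters also occurred at −126 in the Thbs2 window and at −205 and −126 in the Tnc windows, which are the same bases counted from different starts. The windows of these genes held between 4 and 16 CpG dinucleotides, where the median of all windows was 7, with the highest count in Tnc. The AP-1 site (TGANTCA), the TEAD site (GGAATG) and the CArG box were found in none of the 7 windows searched, and 7.8%, 14.7% and 1.6% of all windows hold them. These motifs were chosen after expression values were seen, and a match is a description of the letters only.

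Fn1 and Sparc, the most abundant of the 10, changed in opposite directions and exchanged rank. Fn1 (ENSMUSG00000026193, chromosome 1 from 71585520 to 71653200, minus strand, mm10), whose protein forms the provisional matrix to which smooth muscle cells attach through integrins, had 1244, 1224 and 1223 FPKM in control and 1629.7, 1669.7 and 1638 FPKM in siEzh2 samples. Every siEzh2 sample was above every control sample. Its mean rose from 1230.3 ± 11.6 to 1646 ± 21.2 FPKM (mean ± SD, n = 3 per group), 1.34 times, with a log2 fold change of 0.42 (SE 0.0317, limma adjusted p = 0.000223). Fn1 has 45 exon blocks over 11685 bases, of which 2.5% overlap the antisense gene Apol7d. It took 1.44% ± 0.0135 of all recovered reads in control and 1.92% ± 0.0252 in siEzh2 samples (mean ± SD, n = 3 per group).

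Sparc (ENSMUSG00000018593, chromosome 11 from 55394500 to 55423183, minus strand) encodes the collagen-binding glycoprotein osteonectin. It had 1310.2, 1319 and 1342 FPKM in control and 988, 1002 and 1014 FPKM in siEzh2 samples. All siEzh2 samples were below all control samples, with no value shared between the ranges. The mean fell from 1324 ± 16.6 to 1001 ± 12.9 FPKM (mean ± SD, n = 3 per group), and the log2 fold change was −0.40 (SE 0.0322, limma adjusted p = 0.000269). Among tested genes ordered by level, Sparc went from place 15 to place 24 and Fn1 from place 20 to place 9. The ratio of Fn1 to Sparc within a sample, which library scaling cannot change, was 0.949, 0.928 and 0.911 in control and 1.65, 1.67 and 1.61 in siEzh2 samples.

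Sparcl1 (ENSMUSG00000029309, chromosome 5 from 104079111 to 104113733, minus strand), the anti-adhesive relative of Sparc also called hevin, did not pass the test. The values were 1.90, 2.58 and 3.06 FPKM in control and 2.94, 2.29 and 2.37 FPKM in siEzh2 samples, and the groups overlapped. The log2 fold change was 0.02 with a 95% interval from −0.31 to 0.34 (limma adjusted p = 0.932). That interval was the widest of the 10. The coefficient of variation in control samples was 23.2%, where counting error alone, at 411 reads over the 3 samples, gives 8.54%. Sparcl1 was far less abundant than Sparc per length, with Sparc to Sparcl1 ratios of 438 to 689 in control and 336 to 438 in siEzh2 samples.

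**Figure D2:**
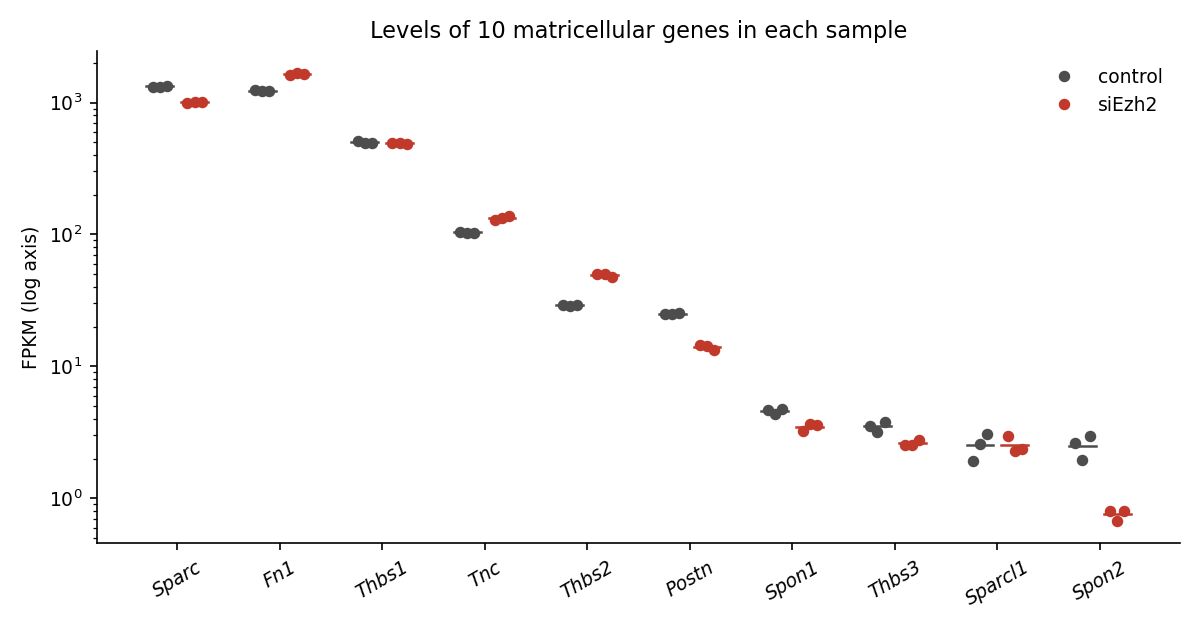
FPKM of each matricellular gene in each of the 6 samples on a log axis, ordered by the control mean (points are samples, lines are group means). Sparc is highest in control and Fn1 in siEzh2 samples, and Spon2 drops below 1 FPKM in all 3 siEzh2 samples.

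Of the thrombospondins, Thbs2 rose, Thbs3 fell and Thbs1 did not pass the test. Thbs2 (ENSMUSG00000023885, chromosome 17 from 14665500 to 14694235, minus strand), an inhibitor of angiogenesis that also governs collagen fibril assembly, had the largest rise of the 10 on the log2 scale. It had 29.1, 28.9 and 29.4 FPKM in control and 49.9, 50.4 and 47.9 FPKM in siEzh2 samples, with no overlap between the groups. The mean rose 1.70 times, from 29.1 ± 0.284 to 49.4 ± 1.31 FPKM (mean ± SD, n = 3 per group), a log2 fold change of 0.74 (SE 0.0351, limma adjusted p = 5.83e-05).

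Thbs1 (ENSMUSG00000040152, chromosome 2 from 118111876 to 118127133, plus strand), the trimer that activates latent TGF-beta and signals through CD47, had 509.9, 492 and 495 FPKM in control and 491, 497 and 482 FPKM in siEzh2 samples. The groups overlapped. Its log2 fold change was −0.03 with a 95% interval from −0.11 to 0.06 (limma adjusted p = 0.575). The log2 fold change of Thbs2 lies outside that interval. Behind these values stood 168463 control reads and 152041 siEzh2 reads, and 3.42% of the exon bases of Thbs1 overlap the antisense gene Gm29233. The within-sample ratio of Thbs1 to Thbs2 was 17.5, 17.1 and 16.8 in control and 9.84, 9.87 and 10.1 in siEzh2 samples.

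Thbs3 (ENSMUSG00000028047, chromosome 3 from 89215180 to 89226837, plus strand) encodes a pentameric thrombospondin without the type 1 repeats of Thbs1 and Thbs2. It had 3.52, 3.20 and 3.79 FPKM in control and 2.54, 2.54 and 2.78 FPKM in siEzh2 samples. All siEzh2 samples were lower than the lowest control sample, on 939 and 645 reads per group. The mean fell from 3.50 ± 0.292 to 2.62 ± 0.137 FPKM (mean ± SD, n = 3 per group), with a log2 fold change of −0.31 (SE 0.0582, limma adjusted p = 0.00606). Of its exon bases 6.59% overlap the antisense gene Mtx1, and no source used here says whether reads were assigned by strand.

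Tnc and Postn, both matrix proteins of wound repair, moved apart. Tnc (ENSMUSG00000028364, chromosome 4 from 63959785 to 64047015, minus strand), a hexameric glycoprotein that weakens adhesion to fibronectin, had 104, 103 and 103 FPKM in control and 129, 132 and 137 FPKM in siEzh2 samples. The control samples lay close together and all siEzh2 samples were higher. An antisense gene, 8030451A03Rik, overlaps 2.26% of its exon bases. The mean rose from 103.6 ± 0.651 to 133 ± 4.19 FPKM (mean ± SD, n = 3 per group), 1.28 times, with a log2 fold change of 0.36 (SE 0.0366, limma adjusted p = 0.000681).

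Postn (ENSMUSG00000027750, chromosome 3 from 54361109 to 54391037, plus strand), which encodes an integrin ligand that promotes collagen crosslinking, had 24.7, 25.1 and 25.4 FPKM in control and 14.4, 14.2 and 13.2 FPKM in siEzh2 samples. The groups were separated by more than 10 FPKM. The mean fell from 25.1 ± 0.333 to 13.9 ± 0.640 FPKM (mean ± SD, n = 3 per group), 1.80 times lower in siEzh2 samples, with a log2 fold change of −0.80 (SE 0.0424, limma adjusted p = 8.41e-05). Postn and Thbs2 were neighbours in level in control samples, with Thbs2 at 1.15 to 1.18 times Postn. In siEzh2 samples Thbs2 was at 3.46, 3.56 and 3.63 times Postn. The ratio of Tnc to Postn moved from 4.13 ± 0.0790 to 9.55 ± 0.748 (mean ± SD, n = 3 per group).

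**Figure D3:**
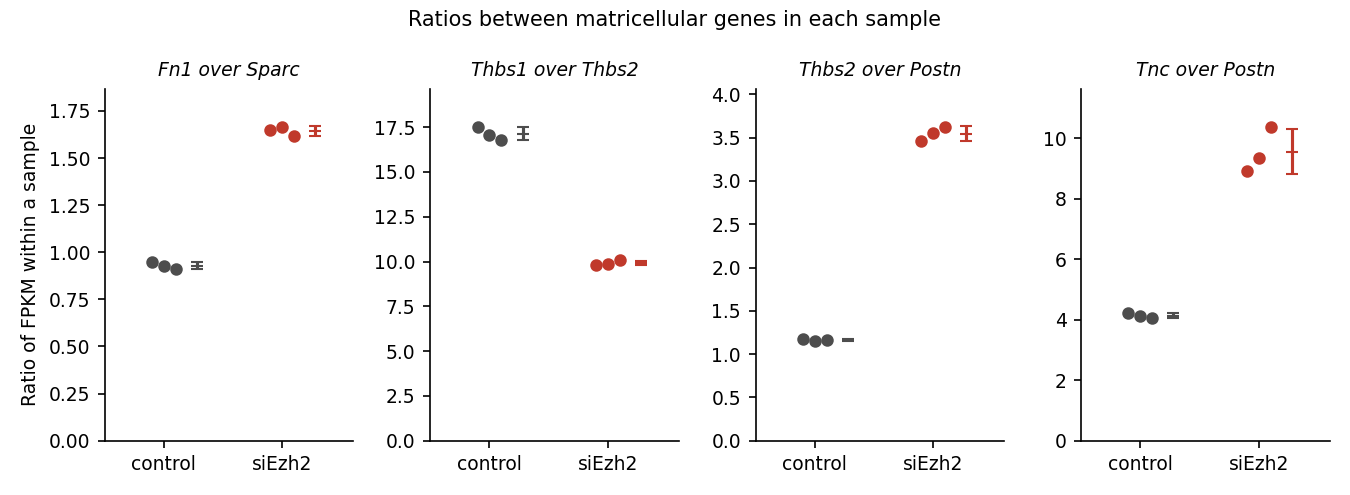
Ratios of FPKM between pairs of matricellular genes within each sample (points are samples, the bar beside them is the mean with its SD over 3 samples, and all axes start at 0). The Fn1 to Sparc ratio crosses 1, Thbs2 over Postn reaches 3.46 to 3.63, and the groups do not overlap in any of the 4 panels.

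Both spondins were lower. Spon2 (ENSMUSG00000037379, chromosome 5 from 33198184 to 33218455, minus strand), or mindin, a secreted protein that also binds bacterial surfaces and integrins of immune cells, had 2.64, 1.95 and 2.94 FPKM in control and 0.802, 0.676 and 0.799 FPKM in siEzh2 samples. Even the lowest control sample was more than 2 times the highest siEzh2 sample. The mean fell from 2.51 ± 0.507 to 0.759 ± 0.0719 FPKM (mean ± SD, n = 3 per group), 3.31 times lower, on 411 control reads and 114 siEzh2 reads. The log2 fold change was −0.99 (SE 0.107, limma adjusted p = 0.000818). The added 1 FPKM compresses this low gene: it was −1.59 with a pseudocount of 0.1 and −1.70 with limma-voom on recovered reads.

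Spon1 (ENSMUSG00000038156, chromosome 7 from 113765998 to 114043370, plus strand), or F-spondin, known from axon guidance and from the binding of amyloid precursor protein, had 4.65, 4.35 and 4.74 FPKM in control and 3.22, 3.64 and 3.62 FPKM in siEzh2 samples. No siEzh2 sample reached the lowest control sample. The mean fell from 4.58 ± 0.205 to 3.49 ± 0.239 FPKM (mean ± SD, n = 3 per group), with a log2 fold change of −0.31 (SE 0.0529, limma adjusted p = 0.0043).

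The summed level of the 10 genes was 3224 ± 16.7 FPKM in control and 3343 ± 31.8 FPKM in siEzh2 samples (mean ± SD, n = 3 per group). Sparc, Fn1 and Thbs1 made up 94.7% ± 0.0329 of this sum in control and 93.8% ± 0.0626 in siEzh2 samples (mean ± SD, n = 3 per group). As a share of recovered reads, the 10 genes took 2.37% ± 0.0159 in control and 2.76% ± 0.0309 in siEzh2 samples (mean ± SD, n = 3 per group). The 10 such ratios, sums and shares computed were chosen after values were seen. For each of them the groups did not overlap and the two-sided exact permutation p was 0.1 (0.1 after Benjamini-Hochberg adjustment), the smallest that 3 samples against 3 allow. For Sparc over Sparcl1 the gap was slight, with a lowest control ratio of 438.3 and a highest siEzh2 ratio of 438.2.

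In order of level per length, the control samples ran from Sparc through Fn1, Thbs1, Tnc, Thbs2, Postn, Spon1, Thbs3 and Sparcl1 to Spon2. Neighbours in that order did not overlap, apart from Sparcl1 (1.90 to 3.06 FPKM) and Spon2 (1.95 to 2.94 FPKM). In siEzh2 samples Fn1 came before Sparc and the rest kept their places, with an overlap between Thbs3 (2.54 to 2.78 FPKM) and Sparcl1 (2.29 to 2.94 FPKM). The spread between samples was small for the abundant genes: the coefficient of variation of Fn1, Sparc and Thbs1 was between 0.943% and 1.92% in either group.

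The genes with the 6-sample pattern nearest to that of Thbs2 were Nedd4l, a ubiquitin ligase, Erlin2 of the endoplasmic reticulum and Hmga2, a chromatin protein. Their centred log2(FPKM + 1) values differed from those of Thbs2 by a mean of 0.0191, 0.01997 and 0.0209 over the 6 samples, among 6894 genes whose mean reached 5 FPKM. Nearest to Spon2, which had the largest fall, were Mfap2 (0.0673), a microfibril protein, Gamt (0.0901) of creatine synthesis and Aplp1 (0.0914), a relative of amyloid precursor protein. The measure takes in the difference between the 2 groups as well as the spread within them. It uses the scale with 1 FPKM added, which compresses the fall of the scarce Spon2 (2.51 to 0.759 FPKM) most. Mfap2 went from 9.05 to 4.54 FPKM, Gamt from 7.92 to 3.57 and Aplp1 from 13.1 to 5.79 (group means).

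The 5 related lists, 66 genes together, were read from the same fit. Close relatives of the 10 genes also went both ways. Of 12 listed relatives 6 were tested, 2 of them higher and 4 lower, with a median log2 fold change of −0.23. The median was 0.01 for all tested genes, with 24.1% called higher and 22.7% called lower. Tgfbi, the paralogue of periostin, rose from 15.9 ± 0.783 to 30.02 ± 1.91 FPKM (mean ± SD, n = 3 per group), opposite in direction to Postn, with a log2 fold change of 0.87 (limma adjusted p = 0.000154). Tnxb, tenascin X, rose 1.51 times. Comp, the pentameric thrombospondin of cartilage, fell from 1.31 ± 0.14 to 0.620 ± 0.122 FPKM (mean ± SD, n = 3 per group) and Smoc2, a SPARC-related protein, 1.40 times. Comp passed the filter through its control samples alone. The other 6 relatives were under the filter, among them Thbs4, at or below 0.0486 FPKM in every sample.

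Of the CCN proteins, matricellular growth regulators, and osteopontin, 6 of 7 genes were tested, 1 was higher and 4 lower (median −0.25), against 24.1% and 22.7% of all tested genes. The one that rose was Spp1, osteopontin, from 1755.5 ± 47.5 to 2289.6 ± 48.9 FPKM (mean ± SD, n = 3 per group, limma adjusted p = 0.000581), more than any of the 10 genes reached per length. Of its exon bases 18.8% lie in Gm42793 on the same strand. Ccn5 fell 1.47 times, Ccn4 1.33 times and Ccn2, or connective tissue growth factor, 1.28 times, from 344 ± 6.54 to 269.8 ± 1.99 FPKM (mean ± SD, n = 3 per group). For Ccn2, 23.2% of the exon bases overlap the antisense gene Gm15270.

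Receptors for these proteins had 7 higher and 4 lower of 15 tested, with 3 of 18 under the filter and a median log2 fold change of 0.06, where the calls took in 24.1% (higher) and 22.7% (lower) of all tested genes. Itgb3, the beta subunit of the integrin that binds fibronectin, thrombospondin and osteopontin, had 1.81, 1.96 and 2.16 FPKM in control and 4.07, 4.13 and 3.73 FPKM in siEzh2 samples. The groups did not overlap and the mean rose 2.01 times (log2 fold change 0.74, limma adjusted p = 0.000243). Sdc4, syndecan 4, a co-receptor for fibronectin, rose from 145 ± 0.673 to 209.9 ± 7.16 FPKM (mean ± SD, n = 3 per group). Itga3, an integrin subunit of laminin and thrombospondin binding, fell 1.45 times and Itga8, a subunit of a fibronectin and tenascin receptor, 1.48 times. In 4 of the fits that left out 1 sample (control 1, control 3, siEzh2 1, siEzh2 3), and in the fit with the replicate number as a block, 2 receptor genes were lower in place of 4, as Calr and Sdc2 lost their calls.

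Among TGF-beta ligands, latency proteins, receptors and SMADs, 5 of 15 genes were higher and 4 lower (median 0.03), against 24.1% and 22.7% of all tested genes. The ligand Tgfb2 fell from 7.24 ± 0.0858 to 3.76 ± 0.313 FPKM (mean ± SD, n = 3 per group, limma adjusted p = 0.000151), and Tgfb3 fell 1.62 times with 12.4% of its exon bases in antisense genes. Ltbp2, a latency-protein relative, fell 1.37 times (9.34% antisense overlap), and the co-receptor Tgfbr3 rose 1.502 times. Tgfb1, the ligand that thrombospondin 1 activates, had 11.3 ± 0.875 and 11.5 ± 0.498 FPKM (mean ± SD, n = 3 per group, limma adjusted p = 0.734), and was named after its value was seen.

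Enzymes and chaperones that act on these proteins had 3 higher and 3 lower of 14 (median −0.00322), where 24.1% and 22.7% of all tested genes were higher and lower. Tgm2, the transglutaminase that crosslinks fibronectin, fell 1.299 times (21.8% of its exon bases in antisense genes), Adamts1, a protease with thrombospondin repeats, 1.26 times and the chaperone Hsp90b1 1.21 times. Hsp90b1 shares 5.38% of its exon bases with same-strand and 10.3% with antisense genes. Fam20c, a kinase of secreted proteins, rose 1.248 times. The glycosyltransferases of the thrombospondin repeat, Pofut2 and B3glct, had log2 fold changes of −0.08 and −0.04 (limma adjusted p = 0.107 and 0.522), and were named after their values were seen.

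**Figure D4:**
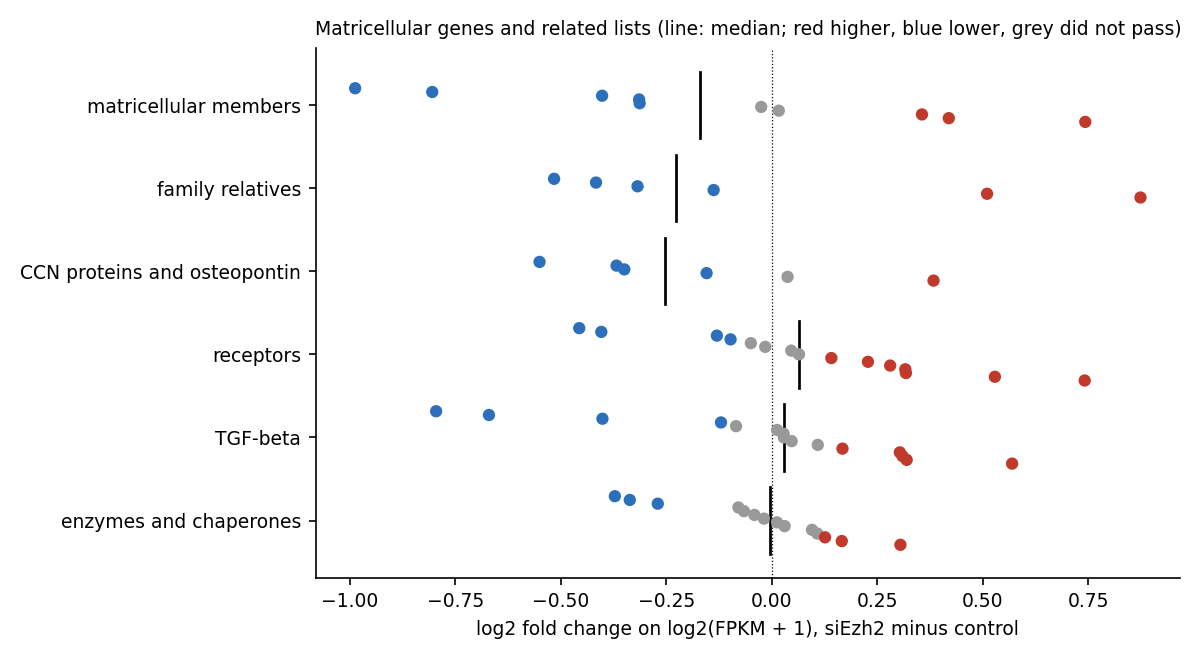
Log2 fold changes on the log2(FPKM + 1) scale, siEzh2 minus control, of the 10 matricellular genes and of the tested genes in 5 related lists (1 point per gene, black line at the median, red higher, blue lower, grey did not pass). Each list holds genes on both sides of 0, with Tgfbi, Itgb3 and Thbs2 farthest to the right and Spon2, Postn and Tgfb2 farthest to the left.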

How the data were processed

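Per the file headers, the authors deposited FPKM per gene, with 1 table per sample. Tools named in the submitters' processing notes are Cufflinks, HTSeq, HISAT2 and Trimmomatic, without versions, and the build named is mm10. Libraries were stranded mRNA libraries, per the labels' protocols. Exon lengths, coordinates and exon overlaps came from GENCODE M21 on the same build, which held 99.8% of the gene IDs. FPKM times exon length moved in steps, from which 16080005 to 18753124 reads per sample were recovered. At least 98.46% of values under 1000 reads were whole within 0.02 of a read. A count of 0 allows up to 3 reads, or 0.16 to 0.187 CPM at these depths, for counting error only.

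Genes whose mean reached 1 FPKM in either group were tested on log2(FPKM + 1) by limma 3.58.1 (R 4.3.3), with no covariate. Adjusted p-values are Benjamini-Hochberg values over all tested genes. Fold ratios are of FPKM means. The labels name no batch. Other steps used scipy 1.17.1, numpy 2.4.6, pandas 2.3.3 and Python 3.11.15. Named genes were the 10 members, Ezh2, the 4 called genes with the largest absolute change in each related list, and the 3 nearest patterns to the largest rise and fall. Markers and the other genes named outside this rule, such as Thbs4, Calr, Sdc2, Bmp1, Dpy19l1 and Mmp14, were named after their values were seen. Members and lists were chosen with earlier results of these data known. The test was first checked on simulated data for 11448 genes with known changes. It called 58% of the genes changed 1.25 times, 94% at 1.5, 90% at 2 and 98% at 3 times. Each size had 50 genes, and 4 unchanged genes were called. Far fewer genes were changed there than the 46.9% called in these data. No sample was a copy of another: chi-square per degree of freedom on recovered reads was at least 2.09 within groups. Alternatives were another pseudocount, filter, scaling or limma setting, a block on the replicate number, limma-voom on recovered reads, and leaving out each sample.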

Additional observations from a re-analysis of the deposited data

How the results depend on the processing

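In all 136 values of the 10 matricellular genes under the alternatives, each gene kept its side of the threshold, and the 8 called genes kept their direction. Spon1, Thbs3, Sparcl1 and Spon2 had no value with a filter of 5 FPKM. There 2 members were lower, of 6 tested. Leaving out each sample in turn left 3 members higher and 5 lower each time, while all genes ranged from 2309 to 2516 higher and 2156 to 2345 lower. Sparcl1, not called, ranged from −0.11 to 0.13. Receptor genes lower were 2 with the replicate number as a block and 2 to 3 without single samples. Without single samples, 3 genes of the TGF-beta list were lower each time, in place of 4, and 4 to 5 were higher. In the list of CCN proteins and osteopontin, and among the family relatives, 3 to 4 genes were lower there. Enzymes and chaperones higher were 5 with limma-voom, as Dpy19l1 and Mmp14 passed there. They were 2 with the replicate number as a block, where Bmp1 lost its call, and 2 to 3 without single samples. The block changed no call of a member. Same-numbered samples had deviations correlated by 0.0243, 0.0695 and 0.0405, above every differently numbered pair (−0.0623 to 0.0218). A weak match by number thus remains possible, but the main fit did not pair samples. The largest adjusted p of a called member was 0.0242, for Thbs3 without siEzh2 sample 2. Spon2 and Sparcl1 rest on the fewest reads of the 10, at 114 and 378 in siEzh2 samples.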
